A study of Mus musculus with 6 samples.

Results

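The ribosomal protein pseudogenes of the mouse were examined in immortalized podocytes, the filtration barrier cells of the kidney glomerulus. Members were the genes whose GENCODE M21 symbol begins with Rpl or Rps and carries the pseudogene mark "-ps", after the version had been removed from each Ensembl identifier. There were 300 such genes among the 57132 identifiers of the count table, of which 51880 had a symbol in that annotation. GENCODE M21 lists 287 of them as processed pseudogenes, 7 as transcribed processed pseudogenes and 6 as protein coding. They are named after 62 parent genes, 60 of which are in the table as protein coding genes. The group was selected on the counts of Rpsa-ps10 in the 6 samples, which were already known to be higher in AS than in WT podocytes, so the values of Rpsa-ps10 in the lines are given as a description with no test.

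RNA-seq had been performed on untreated IMWT podocytes (WT, genotype Col4a3+/+) and untreated IMAS podocytes (AS, genotype Col4a3-/-), with 3 samples of each, labelled as sets 1 to 3. Col4a3 encodes a collagen IV chain of the glomerular basement membrane, and its loss is a model of Alport syndrome. Both lines came from adult male mice 8 weeks of age and carry the H-2Kb-tsA58 transgene, a temperature-sensitive SV40 large T antigen driven by an interferon-inducible promoter. Per the labels, cells were grown at 33 °C with 20 U/mL interferon gamma and 10% serum and then differentiated for 14 days at 37 °C. Each genotype was 1 cell line, so genotype, line and the strain background of the crossed mice cannot be told apart. Whether the sets were separate cultures is not stated, and p-values then measure only the spread between these samples, which may be technical.

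Total counts lay between 45417221 and 54290968 per sample. CPM are counts scaled to library size with edgeR's TMM factors, and a gene was called where the adjusted p of edgeR's quasi-likelihood test was under 0.05. Col4a3 was at 938, 1052 and 1272 CPM in WT and at 62.4, 61.2 and 82.9 CPM in AS, 15.8 times higher in WT by the means. Among the podocyte markers, Synpo and Actn4 were at 497 CPM or more in every sample, whereas Nphs1 was under 0.5 CPM. Wt1 fell in AS (log2 fold change -3.04, adjusted p = 3.57e-05). The summed level of 3 endothelial markers was 0.533 to 1.03 CPM in WT and 0.155 to 0.447 CPM in AS, and that of 3 immune markers 1.54 to 3.14 and 1.85 to 2.78 CPM. The immune marker Adgre1 and the tubular marker Umod had no count, and Slc34a1, also tubular, had 1 count in each line. The mesangial marker Pdgfrb and the tubular marker Lrp2 made up most of their lists, whose sums were 247 to 275 CPM in WT and 123 to 125 CPM in AS for the former and 246 to 307 and 196 to 307 CPM for the latter. The part of these markers in the results was not tested.

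A processed pseudogene is the trace of an mRNA that was reverse transcribed and inserted back into the genome, so it lacks the introns and usually the promoter of its parent gene. Ribosomal protein mRNAs are abundant in the germline and have left many such copies. Ribosomal proteins of the small subunit (RPS) surround the rRNA that decodes the mRNA, and those of the large subunit (RPL) surround the rRNA that forms the peptide bond. Since a copy and its parent can be identical over the length of a read, the counting of reads may have split reads of a parent gene between the parent and its copies, and every value below is uncertain to that extent. In addition, the strand setting of the counting is not given in the sources used here, so a pseudogene that overlaps another gene on the opposite strand cannot be told apart from it.

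To show how similar a copy and its parent are, the start of the coding sequence of Rpsa and the same bases of Rpsa-ps10 are given from the GENCODE M21 transcripts (GRCm38), 5′ to 3′, from coding base 1 to 300. Capitals mark the bases that differ.
Rpsa: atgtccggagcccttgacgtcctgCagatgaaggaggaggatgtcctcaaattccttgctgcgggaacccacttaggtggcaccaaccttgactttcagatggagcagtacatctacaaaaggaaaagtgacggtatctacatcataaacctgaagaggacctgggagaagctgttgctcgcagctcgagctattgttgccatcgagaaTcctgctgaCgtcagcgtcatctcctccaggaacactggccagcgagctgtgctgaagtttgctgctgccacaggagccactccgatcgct
Rpsa-ps10: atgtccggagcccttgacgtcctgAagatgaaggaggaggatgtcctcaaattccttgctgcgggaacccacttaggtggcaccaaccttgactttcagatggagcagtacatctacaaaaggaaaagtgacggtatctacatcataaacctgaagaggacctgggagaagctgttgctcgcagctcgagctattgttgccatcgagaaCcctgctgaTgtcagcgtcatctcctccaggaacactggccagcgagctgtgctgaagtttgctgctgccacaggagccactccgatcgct

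Over all 885 coding bases, Rpsa-ps10 differed from Rpsa at 6 positions and was 99.3% identical. With the base of Rpsa first and positions counted from base 1 of its coding sequence, the differences were C25A, T210C, C219T, C345G, C696T and G858A. The longest run without a difference was 350 bases. The reading frame of Rpsa held no stop codon in Rpsa-ps10 before the last codon. Of the 100-base windows of the Rpsa-ps10 transcript, 34.9% were found in no other GENCODE M21 transcript and 53.9% were also found in Rpsa.

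A pseudogene with a change of the opposite direction, Rpl15-ps2, is shown beside Rpl15 in the same way, from coding base 55 to 354.
Rpl15: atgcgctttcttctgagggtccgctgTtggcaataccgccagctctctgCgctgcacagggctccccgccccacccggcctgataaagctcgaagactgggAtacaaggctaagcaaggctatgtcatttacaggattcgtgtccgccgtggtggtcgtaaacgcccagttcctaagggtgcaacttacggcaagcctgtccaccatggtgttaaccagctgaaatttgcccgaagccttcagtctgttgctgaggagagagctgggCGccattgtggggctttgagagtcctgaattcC
Rpl15-ps2: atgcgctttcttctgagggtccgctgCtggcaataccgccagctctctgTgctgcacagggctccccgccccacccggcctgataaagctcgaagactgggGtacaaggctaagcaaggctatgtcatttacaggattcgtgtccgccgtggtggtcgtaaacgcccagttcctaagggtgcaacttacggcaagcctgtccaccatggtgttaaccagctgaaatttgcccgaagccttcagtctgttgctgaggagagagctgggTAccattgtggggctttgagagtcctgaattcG

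Rpl15-ps2 aligned to 610 coding bases of Rpl15 with 8 differences (98.7% identity), which were G15A, T81C, C104T, A156G, C322T, G323A, C354G and G605A, counted as above. The longest run without a difference was 250 bases, and 56.2% of its 100-base windows were found in no other transcript.

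Of the 300 pseudogenes, 178 held at least 1 count and 122 held none. Counts were found in both lines for 140, only in WT for 13 and only in AS for 25, but no pseudogene counted only in WT had more than 3 counts in total and none counted only in AS had more than 7. A count was present in all 6 samples for 100 pseudogenes. Together the pseudogenes took 0.0181% to 0.0203% of the counts of a WT sample and 0.0308% to 0.0325% of those of an AS sample. Without Rpsa-ps10 these shares were 0.0178% to 0.0200% in WT and 0.0163% to 0.0173% in AS. Rpsa-ps10 took 1.44% of all pseudogene counts in WT and 47.4% in AS. The genes of the ribosomal proteins themselves took 1.52%, 1.81% and 1.77% of the counts in WT and 1.81%, 1.94% and 1.84% in AS. The lines overlapped, since set 2 of WT was slightly above set 1 of AS.

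Counts were found most often on pseudogenes that are nearly identical to their parent. Of the 295 pseudogenes that aligned to their parent mRNA, 14 were 100% identical over the aligned bases, and all 14 held counts, with a median of 936.5 over the 6 samples. Of the 85 pseudogenes with 98% to under 100% identity, 81 held counts (median 57). Of the 68 with 95% to under 98% identity, 46 held counts (median 2), and of the 128 with less identity, 35 did (median 0). Across these 295 genes, Spearman's rho between identity and total count was 0.735, which is a description over genes that share libraries and, in part, sequence. The median share of 100-base windows found in no other transcript was 0% in the class with full identity and 100% in the class under 95%.

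**Figure D1:**
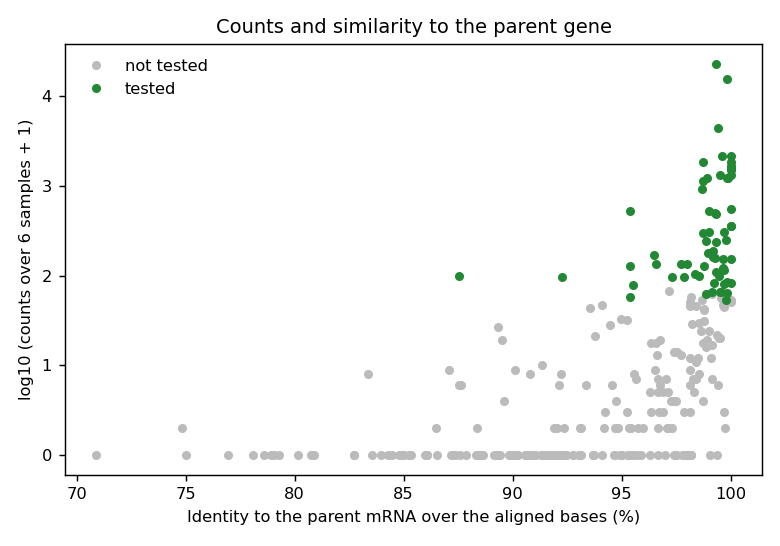
Each point is 1 of the 295 pseudogenes aligned to its parent mRNA, with the identity over the aligned bases (percent) on the x axis and log10 of the count over 6 samples plus 1 on the y axis; green points passed the filter on low counts. All 14 pseudogenes at 100% identity lie above 0 on the y axis, and only 2 of the 128 under 95% identity are green.

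Low counts were removed by edgeR's filterByExpr, which left 65 pseudogenes of 39 parent genes among the 16263 genes tested. A further 113 pseudogenes had counts but were not tested (median 7 and at most 67 counts over the 6 samples). Of the 65, 46 reached the level of the filter in all samples of both lines, 7 in all samples of WT only, 4 in all samples of AS only and 8 in another combination of samples. A gene that passed through the line where it was higher was favoured by the filter, so the counts of calls below are a description of the genes that passed and not of all 300. Small subunit copies made up 29 of the tested pseudogenes (26.1% of 111) and large subunit copies 36 (19.0% of 189). The mean level of the tested pseudogenes besides Rpsa-ps10 ranged from 0.178 to 52.9 CPM and lay under 1 CPM in 37. For 15 of the 65, no 100-base window was free of a match in another transcript. Another annotated gene overlapped 26 of the 65, on the opposite strand in 16 of them.

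Rpsa-ps10 (chromosome 3, ENSMUSG00000047676.7) is a copy of Rpsa, which encodes a small subunit protein also known as the laminin receptor. It was at 2.31, 3.16 and 2.99 CPM in the WT samples, from 117, 148 and 138 counts. In the AS samples it was at 145, 149 and 153 CPM, from 6544, 7644 and 8432 counts. The 3 AS samples were close to each other, all far above the 3 WT samples. The mean rose from 2.82 ± 0.45 to 149 ± 3.98 CPM (SD, n = 3 each), 52.9-fold, or 5.73 on the log2 scale. In such bulk samples, more expressing cells and more RNA per cell cannot be told apart.

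The parent gene Rpsa (chromosome 9, ENSMUSG00000032518.7) was at 367, 454 and 436 CPM in WT and at 249, 267 and 259 CPM in AS. No AS sample reached the lowest WT sample. Rpsa fell by 0.70 on the log2 scale (SE 0.08, edgeR adjusted p = 0.000168). The mean difference between AS and WT was 146 CPM for Rpsa-ps10 and -161 CPM for Rpsa. Per kilobase of exon, the level of Rpsa-ps10 was 3.19 ± 0.51 CPM in WT and 168 ± 4.49 CPM in AS, and that of Rpsa was 132 ± 14.5 and 81.5 ± 2.89 CPM (SD, n = 3 each), where the exon length of Rpsa joins all its annotated transcripts.

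The levels of Rpsa and Rpsa-ps10 moved in opposite directions by similar amounts of CPM, and their sum in AS lay within the range of WT. Rpsa-ps10 made up 0.625%, 0.691% and 0.682% of the counts of the pair in WT and 36.8%, 35.7% and 37.2% in AS. The sum of the pair was 369, 458 and 439 CPM in WT and 394, 416 and 412 CPM in AS. Sets 2 and 3 of WT had the highest sums and set 1 of WT the lowest. With the counts of Rpsa and its 9 named pseudogenes added before the fit, a step chosen after the data were seen, the log2 fold change was -0.05, compared with -0.70 for Rpsa alone. With all processed pseudogenes that aligned best to Rpsa added, it was also -0.05. Since these sums hold the counts of Rpsa-ps10, they are given as a description with no test.

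**Figure D2:**
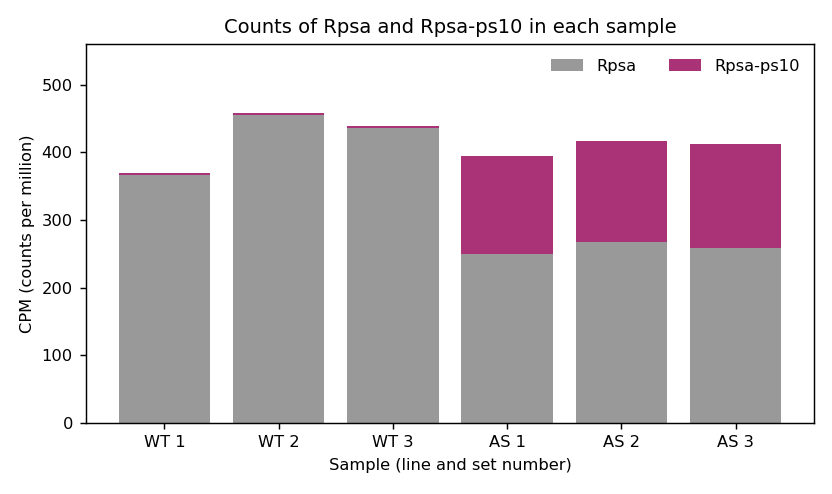
Stacked bars give the CPM of Rpsa (grey) and Rpsa-ps10 (purple) in each of the 6 samples, from 0. Rpsa-ps10 is a thin band of 2.31 to 3.16 CPM in WT and a band of 145 to 153 CPM in AS, while the height of the AS bars, 394 to 416 CPM, lies within that of the WT bars, 369 to 458 CPM.

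The tested genes next to Rpsa-ps10 on chromosome 3, the 2 nearest on each side in GENCODE M21, were looked up after the values of Rpsa-ps10 were known. Adgrl2, a latrophilin receptor, fell (log2 fold change -0.52, adjusted p = 0.00395), as did the interferon-induced Ifi44 (-0.99, adjusted p = 0.0181). The endothelial receptor gene Adgrl4 also fell (-4.06, adjusted p = 0.00383), but its means were only 0.488 CPM in WT and 0.0296 CPM in AS. Gm43573 had a log2 fold change of -0.74 (adjusted p = 0.176). None of the 4 was higher in AS.

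The other named Rpsa copies held few counts. Rpsa-ps12 (chromosome 4, 97.3% identity) was at 0.256, 0.150 and 0.173 CPM in WT and at 0.355, 0.428 and 0.545 CPM in AS. All AS samples were above all WT samples, on 28 counts in WT and 68 in AS, and it reached the level of the filter in all samples of AS but in only 1 of WT. It rose (log2 fold change 1.19, SE 0.42, adjusted p = 0.0476), but the adjusted p was 0.0560 to 0.156 with any of the 6 samples left out, 0.0900 with DESeq2, 0.0506 with limma-voom and 0.115 without the filter on low counts. Of the 7 further named Rpsa copies, none was tested, and Rpsa-ps9, with 14 counts in WT and 43 in AS, had the most. AC122453.1 (chromosome 17), a copy closest to Rpsa without a name of its own, was looked at after its values were seen. It had 23, 19 and 22 counts in WT and 49, 95 and 74 in AS. Its log2 fold change was 1.68 (SE 0.30, edgeR adjusted p = 0.00195).

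Among the 64 tested pseudogenes other than Rpsa-ps10, 12 were called (18.8%), whereas 40.1% of all genes tested were called. The comparison is between few and mostly low genes and all genes: of the tested genes with a mean under 10 CPM, 31.4% were called, as were 11 of the 62 pseudogenes there. Of the 12, 4 rose (20.4% of all genes were called higher) and 8 fell (19.6% were called lower). The CPM of the lines did not overlap for 20 of the 64 (52.3% of all genes tested). The median log2 fold change was -0.06 over the 64 and 0.01 over all genes tested. Called pseudogenes with a log2 change beyond 1 numbered 6, and 11.2% of all genes were called with such a change. Of the tested processed pseudogenes with other names, 98 of 539 were called (18.2%), and among them 21 of the 108 that aligned best to a ribosomal protein mRNA (19.4%). Without the filter on low counts, 11 of 177 pseudogenes were called, none outside those tested before (24.2% of all genes were called).

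**Figure D3:**
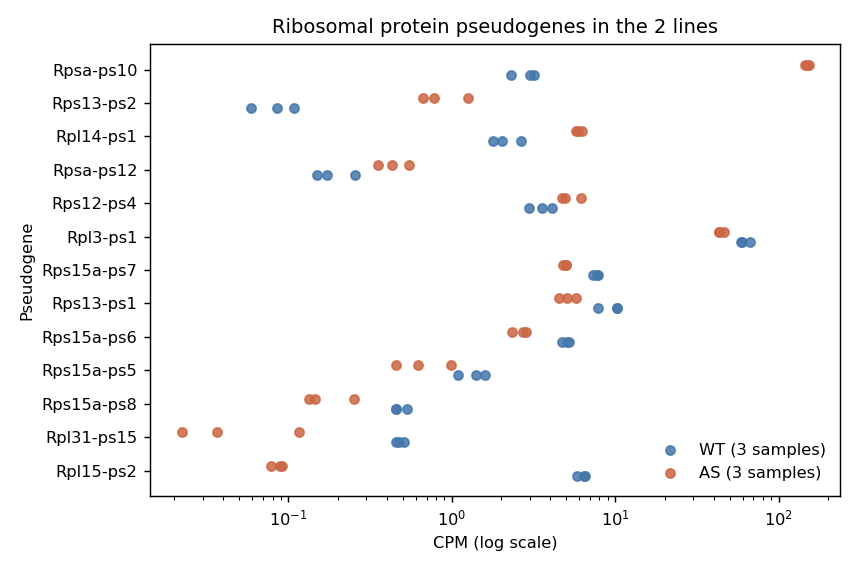
Points give the CPM on a log axis of the 3 WT (blue) and 3 AS (orange) samples for Rpsa-ps10 and the 12 pseudogenes called between the lines, ordered by log2 fold change. Rpsa-ps10 was the reason for the choice of genes and was not tested; Rpl15-ps2 lies near 6 CPM in WT and under 0.1 CPM in AS.

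Of the small subunit copies besides Rpsa-ps10, 28 were tested, of which 3 rose and 5 fell (20.4% of all genes were called higher and 19.6% lower). The 5 included all 4 tested copies of Rps15a, which encodes a protein of the small subunit. Rps15a-ps7 (chromosome 2, 98.7% identity) was at 7.85, 7.31 and 7.74 CPM in WT and at 5.02, 5.02 and 4.78 CPM in AS. The samples of each line were close together and the lines did not overlap. Rps15a-ps7 fell by 0.63 on the log2 scale (SE 0.12, adjusted p = 0.00216). Rps15a-ps6 (chromosome 11, 98.7% identity), which lies on the same strand in an intron of Nudcd3, was at 5.19, 4.70 and 5.09 CPM in WT and at 2.33, 2.72 and 2.85 CPM in AS. Every AS sample was below every WT sample, and the fall was 0.92 on the log2 scale (SE 0.15, adjusted p = 0.00117).

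The remaining tested Rps15a copies were lower still in level. Rps15a-ps5 (chromosome 5, 98.7% identity), in an intron of Lrrc8d on the opposite strand, was at 1.60, 1.09 and 1.41 CPM in WT and at 0.622, 0.992 and 0.454 CPM in AS. Set 2 of AS was just under set 2 of WT. It fell by 0.99 on the log2 scale (SE 0.33, adjusted p = 0.0404), but the adjusted p was 0.101 without set 1 of WT, 0.0946 without set 3 of WT, 0.101 without set 1 of AS and 0.128 without set 3 of AS. Rps15a-ps8 (chromosome 4), the least similar of the called copies with 92.2% identity and with all of its 100-base windows free of a match elsewhere, had 23, 25 and 21 counts in WT and 6, 13 and 8 in AS. All AS samples were below all WT samples. It fell by 1.42 on the log2 scale (SE 0.42, adjusted p = 0.0224), and the adjusted p was 0.0801 without set 2 of WT, 0.0567 without set 3 of WT, 0.0739 without set 1 of AS and 0.0803 without set 3 of AS. Its level reached that of the filter in all WT samples but in only 1 AS sample, and without the filter its adjusted p was 0.0480.

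Summed, the 4 Rps15a copies were at 15.1, 13.6 and 14.7 CPM in WT and at 8.10, 8.99 and 8.23 CPM in AS. Rps15a itself (chromosome 7) was at 98.2, 113 and 110 CPM in WT and at 118, 125 and 117 CPM in AS. Every AS sample was above every WT sample, but the gene was not called (log2 fold change 0.16, SE 0.06, adjusted p = 0.0718). With its 8 named pseudogenes added, the log2 fold change was 0.08 (adjusted p = 0.338). The adjusted p of Rps15a alone was 0.0495 with the median of each chromosome removed, which passed the threshold. Rps15a was also called with a term for the replicate number, as given further below.

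The 3 tested copies of Rps13, a small subunit protein gene, differed in direction. Rps13-ps1 (chromosome 8, 99.6% identity) was at 7.87, 10.3 and 10.3 CPM in WT and at 5.06, 5.72 and 4.54 CPM in AS. All AS samples were lower, and it fell by 0.89 on the log2 scale (SE 0.15, adjusted p = 0.00131). Genes of chromosome 8 had a median log2 fold change of 0.31 relative to the other genes, the opposite direction. Rps13-ps2 (chromosome 7) was identical to Rps13 over all 453 aligned bases, so none of its 100-base windows was free of a match. It had 3, 4 and 5 counts in WT and 30, 40 and 69 in AS. The AS samples were all higher, with set 3 the highest, and it rose by 3.39 on the log2 scale (SE 0.46, adjusted p = 0.000408), from 0.0843 ± 0.0246 to 0.899 ± 0.312 CPM (SD, n = 3 each). It passed the filter through AS alone, the line where it was higher, and in edgeR's fit without that filter its adjusted p was 8.4e-08. The adjusted p of Col4a3 also went from 1.31e-07 to 1.41e-57 in that fit, so the lower value is not stronger evidence. Among the 12 tested pseudogenes with 100% identity, Rps13-ps2 was the only one called.

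Rps13-ps4 was not called (log2 fold change 1.31, SE 0.56, adjusted p = 0.0891), and it had the largest log2 fold change of the pseudogenes that were not called. Rps13 itself was at 102, 113 and 109 CPM in WT and at 103, 120 and 109 CPM in AS. The lines overlapped, with a log2 fold change of 0.03 (SE 0.07, adjusted p = 0.727). Its sign turned when set 1 of WT (-0.01) or set 2 of AS (-0.03) was left out, and with its pseudogenes added (-0.01).

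Rps12-ps4 (chromosome 7, 99.5% identity), a copy of the small subunit gene Rps12, was at 2.98, 4.08 and 3.55 CPM in WT and at 4.75, 6.13 and 4.89 CPM in AS. Each AS sample was above each WT sample. It rose by 0.57 on the log2 scale (SE 0.17, adjusted p = 0.0255), though the adjusted p was 0.0584 without set 1 of WT, 0.0598 without set 3 of WT and 0.102 without set 2 of AS. It overlaps an exon of Nphs1, the nephrin gene, on the opposite strand. Nphs1 had 67 counts over the WT samples and 6 over the AS samples, against 506 and 798 for Rps12-ps4, and fell in AS (log2 fold change -3.47, adjusted p = 0.00276). Rps12 (chromosome 10) rose by a similar amount, from 213, 300 and 277 CPM in WT to 353, 389 and 371 CPM in AS (log2 fold change 0.50, SE 0.11, adjusted p = 0.00637). Genes of chromosome 10 had a median log2 fold change of 0.31 relative to the others, and with the chromosome medians removed Rps12 was at 0.19 (adjusted p = 0.233). Rps12-ps4 made up 1.27% to 1.38% of the counts of the pair in WT and 1.30% to 1.55% in AS.

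Of the 36 tested large subunit copies, 1 rose and 3 fell, beside the same shares of 20.4% and 19.6% over all genes. Rpl3-ps1 (chromosome X, 99.8% identity over 1210 bases) had the highest level after Rpsa-ps10. Rpl3 encodes a large subunit protein close to the site where the peptide bond forms. The copy was at 59.0, 66.7 and 59.3 CPM in WT and at 43.2, 46.0 and 43.2 CPM in AS. The lines were well apart, and it fell by 0.48 on the log2 scale (SE 0.07, adjusted p = 0.000452). Rpl3 (chromosome 15) went the other way, from 236, 267 and 251 CPM in WT to 358, 361 and 344 CPM in AS, and rose by 0.49 on the log2 scale (SE 0.06, adjusted p = 0.000245). Genes of chromosome 15 had a median log2 fold change of 0.19 relative to the other genes, the same direction as Rpl3. The copy made up 19.1% to 20.0% of the counts of the pair in WT and 10.8% to 11.3% in AS. With both named Rpl3 copies added, the rise of Rpl3 was 0.35 (adjusted p = 0.00199). Only 5.22% of the 100-base windows of Rpl3-ps1 were free of a match in another transcript.

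Rpl15-ps2 (chromosome 9, ENSMUSG00000098915.2), whose sequence is given above, had the largest fall. Rpl15 encodes a large subunit protein. The copy had 297, 303 and 303 counts in WT and 4, 4 and 5 counts in AS, or 5.86, 6.47 and 6.57 CPM against 0.0888, 0.0778 and 0.0909 CPM. It was nearly without counts in each AS sample. The mean was 73.4 times higher in WT, and the fall was 6.16 on the log2 scale (SE 0.23, adjusted p = 1.05e-07). This copy, too, passed the filter through the line where it was higher, WT. Without the filter the adjusted p of edgeR's test was 3.3e-33, which, as for Rps13-ps2, is not stronger evidence. Rpl15-ps2 lies on the opposite strand in an intron of Tcf12. Tcf12 had a log2 fold change of 0.23 and was not called, though it only just missed the threshold (edgeR adjusted p = 0.05001). Rpl15 (chromosome 14) was at 194, 213 and 207 CPM in WT and at 218, 226 and 214 CPM in AS, with a log2 fold change of 0.10 (SE 0.06, adjusted p = 0.201).

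Another Rpl15 copy without a name of its own, Gm10020 (chromosome 15), was looked at after its values were seen. It had 626, 684 and 712 counts in WT and 3, 1 and 1 in AS, so it passed the filter through WT alone. With all copies that aligned best to Rpl15 added, the log2 fold change of Rpl15 turned from 0.10 to -0.04 (adjusted p = 0.595). Neither value passed the test.

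Rpl14-ps1 (chromosome 7, 98.9% identity) was the large subunit copy that rose. Rpl14 encodes a large subunit protein, and this is its only named copy. It was at 1.79, 2.03 and 2.67 CPM in WT and at 5.75, 6.23 and 5.92 CPM in AS. The AS samples were close together and well above every WT sample, and the rise was 1.46 on the log2 scale (SE 0.18, adjusted p = 0.000178). It lies on the opposite strand in an intron of Trpm4, a cation channel gene, which had a log2 fold change of -0.17 (adjusted p = 0.305). Rpl14 rose less, from 159, 191 and 190 CPM to 214, 222 and 212 CPM (log2 fold change 0.27, SE 0.08, adjusted p = 0.0199), and its adjusted p was 0.0532 without set 1 of AS and 0.0717 without set 2 of AS.

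Rpl31-ps15 (chromosome 3, 95.5% identity) had 24, 24 and 21 counts in WT and 1, 6 and 2 in AS. Rpl31 encodes a large subunit protein at the exit of the peptide tunnel. The AS samples were all lower, and the copy fell by 2.97 on the log2 scale (SE 0.56, adjusted p = 0.00257). It passed the filter through WT alone, where it was higher. In edgeR's fit without the filter it had an adjusted p of 0.000334, again not stronger evidence. Of its 100-base windows, 98.9% were free of a match in another transcript. Rpl31, with 24 named copies, was at 144, 167 and 169 CPM in WT and at 160, 180 and 165 CPM in AS and was not called (log2 fold change 0.07, SE 0.08, adjusted p = 0.482).

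The remaining pseudogenes among the 8 with the highest level were not called. Rpl34-ps1, a copy of a large subunit gene, was at 14.8, 16.5 and 16.1 CPM in WT and at 14.2, 13.8 and 14.3 CPM in AS (log2 fold change -0.16, SE 0.08, adjusted p = 0.151). Its AS samples were all slightly lower, but with the chromosome medians removed its log2 fold change was 0.04. Rpl38-ps2, Rpl31-ps8 and Rps23-ps1 were each identical to their parent over the aligned bases, held at least 766 counts in each line and had overlapping lines. Their log2 fold changes were -0.08 (SE 0.14, adjusted p = 0.666), 0.17 (SE 0.12, adjusted p = 0.305) and 0.16 (SE 0.14, adjusted p = 0.382). The parents Rpl34, Rpl38 and Rps23 were not called either, with log2 fold changes of 0.08 (adjusted p = 0.419), 0.04 (adjusted p = 0.765) and 0.09 (adjusted p = 0.251). The 52 pseudogenes that were not called had log2 fold changes between -0.76 and 1.31.

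Most of the parent genes that were called were higher in AS. Of the 60 parents, 15 were called, 13 higher and 2 lower, and of the list of 79 ribosomal protein genes of the cytosol 19 were called, 17 higher and 2 lower, with a median log2 fold change of 0.07. These were smaller shares (25.0% and 24.1%) than the 40.1% called over all genes, of which 20.4% were higher and 19.6% lower. The 19 became 11, and the 15 parents became 10, without set 2 of AS. Rpsa and Rpl28 (-0.17, adjusted p = 0.0462) were the genes that fell. For the 12 called pseudogenes, the parent was called the same way in 2 (Rpl14-ps1 and Rps12-ps4), the opposite way in 2 (Rpl3-ps1 and Rpsa-ps12) and not called in 8. Whether copies and parents differed in their share of rises was not tested. The largest rises among the parents, named after their values were seen, were those of Rpl29 (2.39, adjusted p = 6.67e-09) and Rpl30 (1.38, adjusted p = 1.68e-07). Rpl30-ps1, the tested copy of Rpl30, was not called (-0.56, SE 0.43, adjusted p = 0.335).

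**Figure D4:**
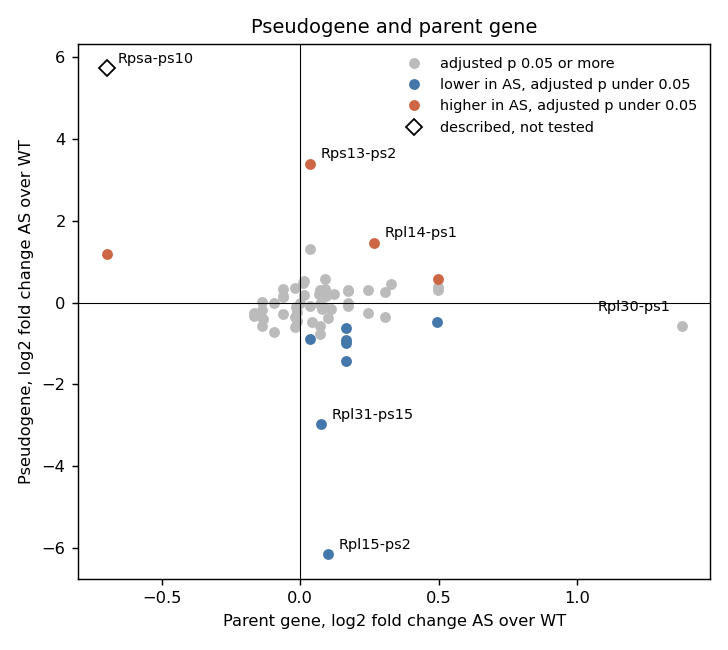
Each point is 1 of the 65 tested pseudogenes, with the log2 fold change AS over WT of its parent on the x axis and its own on the y axis; blue points were called lower, orange points higher and grey points neither, and the open diamond is Rpsa-ps10, which was described and not tested. Rpsa-ps10 lies at -0.70 and 5.73, Rpl15-ps2 at 0.10 and -6.16, and most points lie near 0 on both axes.

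The ratio of pseudogene to parent counts does not depend on the scaling of the libraries. It was computed in each sample as log2 of the count plus 0.5 of the pseudogene over the count plus 0.5 of the parent. The ratio of Rpsa-ps10 to Rpsa was -7.22 ± 0.08 in WT and -0.79 ± 0.05 in AS (SD, n = 3 each). Of the other 64 pairs, 19 had ratios that did not overlap between the lines. Such a ratio has no counterpart over all genes, of which 52.3% did not overlap in CPM. With 3 samples against 3, the two-sided exact permutation test could not go below p = 0.1 for a pair, which became 0.337 after Benjamini-Hochberg adjustment over the 64 pairs. The difference in the log2 ratio, AS minus WT, was -6.14 for Rpl15-ps2, 3.21 for Rps13-ps2, -3.16 for Rpl31-ps15, 1.21 for Rpl14-ps1 and -0.98 for Rpl3-ps1, each without overlap. All of these had been called, and Rpl15-ps2, Rps13-ps2 and Rpl31-ps15 had passed the filter only through the line where they were higher. Differences without overlap were also -1.94 for Rpl30-ps1, which was not called, and 1.86 and -1.61 for the called Rpsa-ps12 and Rps15a-ps8. Each of these, too, had passed the filter only through the line where it was higher. The difference for Rps12-ps4 was 0.06 (exact permutation p = 0.7), with overlap.

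Adding the named copies to their parent moved few of the parents. Besides Rpsa, whose log2 fold change moved by 0.65, the largest move was that of Rpl3 (0.15) and the median move over the other 59 parents was 0.000587. Apart from Rpsa, for which the sum is a description, 14 parents were called alone, and all 14 were called with their copies added (40.2% of all genes were called in that fit).

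**Figure D5:**
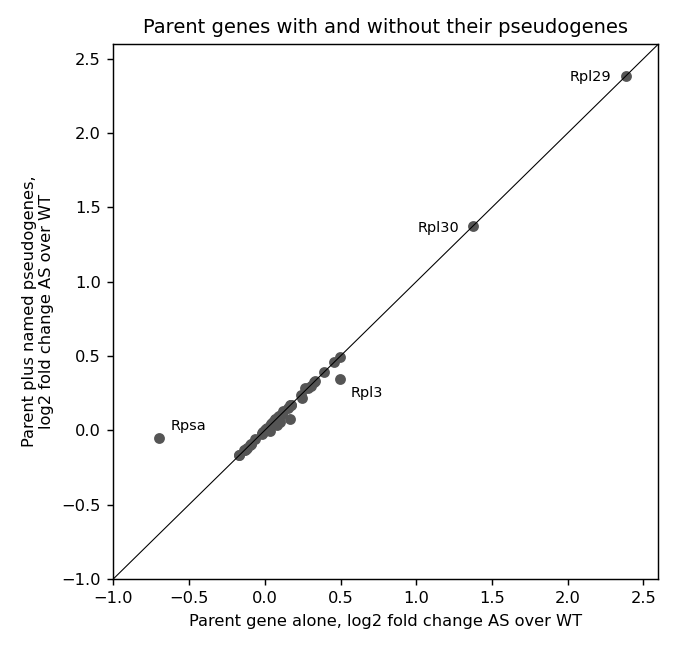
Each point is 1 of the 60 parent genes, with its log2 fold change AS over WT alone on the x axis and with its named pseudogenes added on the y axis; the line marks equal values. Rpsa lies off the line at -0.70 and -0.05, Rpl3 slightly below it at 0.49 and 0.35, and Rpl29 and Rpl30 on it.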

How the data were processed

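RNA-seq libraries of 3 WT and 3 AS podocyte samples, prepared with 15 PCR cycles per the labels, were analysed. The submitters' processing notes name FastQC, Trim Galore, STAR, edgeR and the build mm39. Not given in the sources used here are versions, counting tool, strand setting, annotation release and read length. The values that the authors deposited are raw counts, whole numbers for each gene and sample. GENCODE M21 is on GRCm38, so it served for names, gene types, chromosomes, gene order, overlaps and transcript sequences, and no coordinates are given.

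The main test was the quasi-likelihood test of edgeR 4.0.16 in R 4.3.3, with TMM factors, genotype as the term and Benjamini-Hochberg adjustment over all genes that passed filterByExpr (at least 10 counts in enough samples and 15 in total). It was checked on simulated counts. The SE was approximated from the F statistic. Pseudogene transcripts were aligned to parent mRNAs with blastn, and 100-base windows were searched on both strands of all GENCODE M21 transcripts.

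The members, lists and tests were chosen with earlier results of these data known. Named are Rpsa-ps10, the pseudogenes called, the 8 tested with the highest mean CPM, the extremes of the log2 fold change, their parents and Col4a3; other genes were named after their values were seen. Alternatives were RLE scaling, library size alone, limma-voom (limma 3.58.1), DESeq2 1.42.0, no filter on low counts, only genes with a mean of 1 CPM or more, a term for the replicate number, leaving out each sample, chromosome medians removed through an offset, and 2 counts in place of 0.5 in the ratios. Sums of parent and pseudogene counts were added after the data were seen.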

Additional observations from a re-analysis of the deposited data

How the results depend on the processing

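The count of 12 called pseudogenes, of 64 tested, was 8 to 12 under the alternatives. It was 8 of 27 with a mean CPM of at least 1, and 8 to 11 with a sample left out. The 8 called lower were 6 to 8. Apart from the fit without the filter on low counts (24.2%), the share of all genes called under the alternatives is not given here. The 4 called higher became 2 with a mean CPM of at least 1, and 2 to 5 with a sample left out; the 2 came without set 1 of WT, set 3 of WT or set 2 of AS. With a sample left out, the 19 ribosomal protein genes called became 11 (without set 2 of AS) to 21. The 19 pairs without overlap in the ratio became 20 to 30 (30 without set 2 of AS). A pair without overlap stays so when a sample is left out, so that number could not fall and is no check of the 19. The 98 other processed pseudogenes called became 52 with a mean CPM of at least 1. Rpl15-ps2 had a log2 ratio difference of -5.76 with 2 counts added in place of 0.5.

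Some small values turned in sign and passed no test. With the chromosome medians removed, these were Rpl34-ps1 (0.0445), Rpl38-ps2 (0.123) and Rpl31-ps8 (-0.0167). With a sample left out, Rpl38-ps2 ranged from -0.155 to 0.0151, Rpl38 from -0.0508 to 0.0850 and Rps13 from -0.0342 to 0.0754, and the difference in the log2 ratio of Rps12-ps4 to Rps12 ranged from -0.0180 to 0.111. With named copies added, Rps13 was at -0.0080, and with all matched copies added Rps13 was at -0.0070 and Rpl15 at -0.0440. The cause was not tested.

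Same-numbered WT and AS samples had correlations of their deviations of 0.284, 0.160 and 0.0801. Those of differently numbered samples were -0.231 to 0.139. The numbers were not taken to pair the samples, but these values do not settle whether they do, so the block is given as an alternative. With the replicate block, 11 pseudogenes, 18 parents and 23 ribosomal protein genes were called, Rpsa-ps12 was not (adjusted p = 0.0790) and Rps15a was (adjusted p = 0.0366). The share of all genes called with the block is not given here, so these counts cannot be set beside it. The counts per gene of the tested pseudogenes limit the precision: 37 of the 64 had a mean under 1 CPM, and intervals over reads would cover counting error only.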

Other observations

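Some processed pseudogenes that aligned best to a ribosomal protein mRNA but have no "-ps" in their symbol differed in both directions, and the ones given here were chosen after their values were seen. Gm8210 (chromosome 1), which aligned best to Rpl29, was at 20.2, 22.2 and 22.1 CPM in WT and at 0.422, 0.331 and 0.418 CPM in AS (log2 fold change -5.78, SE 0.14, edgeR adjusted p = 7.19e-09). The AS samples were nearly without counts. Gm13841 (chromosome 5), also closest to Rpl29, was at 3.23, 3.14 and 3.94 CPM in WT and at 0.355, 0.720 and 0.491 CPM in AS (log2 fold change -2.71, adjusted p = 5.85e-05). Other copies closest to Rpl29 rose. Those given next reached the level of the filter in all samples of AS only, the line where they were higher. Gm10709 (chromosome 9) had 7, 8 and 4 counts in WT and 54, 90 and 78 in AS (log2 fold change 3.44, SE 0.37, adjusted p = 8.9e-05), Gm6344 (chromosome 13) had 11, 4 and 3 and then 58, 88 and 70, and Gm5561 (chromosome 1) had 2, 3 and 1 and then 30, 27 and 39. Rpl29 itself, a large subunit protein gene, rose by 2.39 on the log2 scale, and with all copies that aligned best to it added the value was 1.57 (adjusted p = 9.21e-08).

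Gm11942 (chromosome 4), closest to the ribosomal stalk gene Rplp1, was at 14.6, 12.8 and 12.1 CPM in WT and at 0.622, 0.623 and 0.581 CPM in AS (log2 fold change -4.43, adjusted p = 6.15e-08), while Rplp1 rose (0.29, adjusted p = 0.0469). With all copies that aligned best to Rplp1 added, the value of Rplp1 was 0.23 and was not called (edgeR adjusted p = 0.0829). The largest rises were on few counts, of genes that passed the filter through AS alone. Gm14513 (chromosome X), closest to Rps3, had no count in WT and 54, 66 and 81 counts in AS, and Gm44958 (chromosome 6), closest to Rps6, had 1, 0 and 0 counts in WT and 27, 52 and 47 in AS. Of the 108 such copies tested, 14 were called higher and 7 lower (over all genes 20.4% were higher and 19.6% lower), with a median log2 fold change of 0.07. Among those called are genes that passed the filter only through the line where they were higher.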
